A study of Caenorhabditis elegans with 2 samples.

Results

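The nuclear hormone receptor genes of Caenorhabditis elegans were described here as targets in a ChIP-seq experiment on the forkhead transcription factor UNC-130. The members were the 269 protein-coding genes named nhr plus a number in the WBcel235 annotation, out of 19973 protein-coding genes on the nuclear chromosomes. The data were peak lists from 2 biological replicates of 1 group, with no second condition. Both came from whole hermaphrodite L4 larvae of strain AGK541, collected 48 h after synchronization by L1 starvation. All animals carried armSi1 on chromosome II, an insertion in which the mex-5 promoter drives UNC-130 fused to GFP with the tbb-2 3'UTR and a cb-unc-119(+) marker. They also carried unc-119(ed3) on III and niDf199 on IV. The mex-5 promoter is active in the germline, so the lists report where this transgenic protein was recovered with an antibody to GFP, and whole animals do not show in which cells. A gene was scored in each list by the highest peak signal whose summit, the peak's position of greatest enrichment, lay from 1000 bp upstream to 200 bp downstream of its 5' end. The lists were the reproducible list selected by the irreproducible discovery rate (IDR) method (1667 peaks), and the relaxed lists of the pooled reads (16959 entries), of replicate 1 (19058) and of replicate 2 (18463). By their label the relaxed lists contain background as well as peaks. Signal is the authors' value, whose scale the sources used here do not state, and values are compared only within a list. Read depth is unknown. Coordinates are on ce11.

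Nuclear hormone receptors are transcription factors with a zinc finger domain that binds DNA and a domain that can bind a small lipophilic ligand. Nematodes have an unusually large family, most of which descends from an ancestor related to the vertebrate receptor HNF4, and a small set has counterparts in insects and mammals. In worms the well-studied members act in moulting, fat and sterol metabolism, detoxification and development of the gonad. Forkhead factors such as UNC-130 bind short DNA words of the kind TGTTTAC.

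The sequences at 3 member summits are shown, nhr-142 and nhr-47 with the highest signals of the family and nhr-1, which ranked high in replicate 1. Each is the plus strand of ce11 read 5′ to 3′ from the RefSeq copy of the assembly, centred on the pooled summit, and the capitals mark the 21 bases at the summit. Of these, nhr-47 is cut to 30 bases because its summit lies in an annotated 5' UTR, and there the capital is the summit base. They lie at chrV:5790971-5791171 (nhr-142), chrV:5505257-5505286 (nhr-47) and chrX:17513622-17513822 (nhr-1).
nhr-142: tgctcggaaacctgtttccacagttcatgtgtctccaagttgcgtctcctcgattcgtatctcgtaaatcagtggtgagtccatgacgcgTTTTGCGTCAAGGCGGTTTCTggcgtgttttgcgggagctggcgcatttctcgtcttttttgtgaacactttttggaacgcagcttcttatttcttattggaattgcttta
nhr-47: tcgcttgccccattcTcgtgagcgcacggc
nhr-1: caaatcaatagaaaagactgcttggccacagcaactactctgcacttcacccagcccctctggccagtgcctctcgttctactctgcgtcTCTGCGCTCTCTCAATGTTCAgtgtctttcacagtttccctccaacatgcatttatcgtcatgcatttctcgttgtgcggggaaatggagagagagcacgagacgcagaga

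At nhr-255 and nhr-193 the summit lay beside tRNA genes, and these sequences are shown with the bases of the tRNA gene in capitals. The nhr-255 window, chrX:15741923-15742123, runs into a tRNA-Leu gene on the plus strand whose 5' end was 27 bp from the summit. The nhr-193 window, chrV:16341779-16341979, starts with a tRNA-Asn gene on the plus strand whose 5' end was 100 bp from the summit, and another tRNA-Asn gene had its 5' end at 206 bp.
nhr-255: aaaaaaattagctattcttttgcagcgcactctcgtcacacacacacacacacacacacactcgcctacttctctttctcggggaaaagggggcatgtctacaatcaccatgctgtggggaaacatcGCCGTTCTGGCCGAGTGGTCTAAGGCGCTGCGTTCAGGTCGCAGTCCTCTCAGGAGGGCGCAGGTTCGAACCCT
nhr-193: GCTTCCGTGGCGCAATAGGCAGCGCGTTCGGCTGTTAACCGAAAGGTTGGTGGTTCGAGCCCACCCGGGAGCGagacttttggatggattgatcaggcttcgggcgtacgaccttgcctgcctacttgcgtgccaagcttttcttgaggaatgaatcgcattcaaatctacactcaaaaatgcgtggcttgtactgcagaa

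Reproducible peaks were few at these receptors. An IDR summit lay in the window of 4 of 269 members (1.49%, 95% Wilson interval 0.580 to 3.76), while 7.85% of all coding genes had one. The members were nhr-142, nhr-47, nhr-86 and nhr-255, the first 3 on V and the last on X. Their IDR signals ran from 68.3 to 121.0, and their median of 99.8 lay beside a median of 94.9 over the 1568 coding genes with an IDR summit. No test was made of the family's share, because the family was singled out with earlier results of these data known. The intervals cover counting error over genes alone, and neighbouring genes are not independent.

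The nhr-142 gene (V, 5785957 to 5790553, minus strand) had the highest signal of the family. The signal was 121.0 in the pooled and IDR lists, 46.1 in replicate 1 and 74.1 in replicate 2. Its ranks in these lists, 420 in the pooled list, 505 in replicate 1 and 395 in replicate 2, were close to each other. The peak (V, 5790861 to 5791280) was intergenic, with its summit 518 bp upstream of nhr-142 but only 159 bp upstream of the coding gene F44E7.9. Of the 4 IDR peaks, it was the only one with the 5' end of another coding gene nearer than the member's.

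The nhr-47 gene (V, 5505253 to 5509956, plus strand) followed with a pooled signal of 104.7, against 41.01 in replicate 1 and 65.1 in replicate 2. Its ranks were 569, 658 and 537 in the same order. The summit lay 19 bp inside the gene, in the 5' UTR, within the peak at V, 5505062 to 5505481. It was also 415 bp upstream of dnj-19, which encodes a DnaJ-type chaperone, and 11 bp from the 5' end of the noncoding RNA gene C24G6.10.

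The nhr-86 gene (V, 2061106 to 2066850, minus strand) encodes a receptor of the intestinal response to bacterial metabolites. Its signal was 94.9 in the pooled list, 26.4 in replicate 1 and 67.7 in replicate 2, and its ranks of 708, 1512 and 494 differed more between replicates than those of nhr-142 and nhr-47. The peak (V, 2067403 to 2067822) was intergenic. Its summit lay 763 bp upstream of nhr-86 and 836 bp upstream of lbp-9, a gene of the fatty acid binding protein family, between the divergent genes.

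The nhr-255 gene (X, 15742610 to 15744298, plus strand) had the lowest signal of the 4, 68.3 in the pooled list, 23.1 in replicate 1 and 44.3 in replicate 2. It ranked 1322, 1932 and 1186. The summit was intergenic and 587 bp upstream of nhr-255, in the peak at X, 15741813 to 15742232, beside the tRNA-Leu gene printed above. When summits within 500 bp of a tRNA gene were left out, 3 members kept an IDR summit and nhr-255 did not. The part of the tRNA gene in its peak was not tested.

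The lowest signal of the IDR list was 58.8, so nhr-255 was the member just above this limit and nhr-49 the one just below it. The nhr-49 gene (I, 9869651 to 9874680) encodes an HNF4-like receptor of the fasting response and fat metabolism. Its signal was 53.0 in the pooled list, 18.8 in replicate 1 and 44.5 in replicate 2. The pooled rank was 1979, and the summit lay in intergenic DNA 355 bp upstream. Replicate 2 had a summit at the same base, but the nearest one of replicate 1 was 211 bp away. Among the 1667 highest peaks of replicate 2 alone, 5 members had a summit, nhr-49 (rank 1177) beside the 4 of the IDR list. Among those of replicate 1 alone, 4 members had one, with nhr-1 in place of nhr-255.

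**Figure D1:**
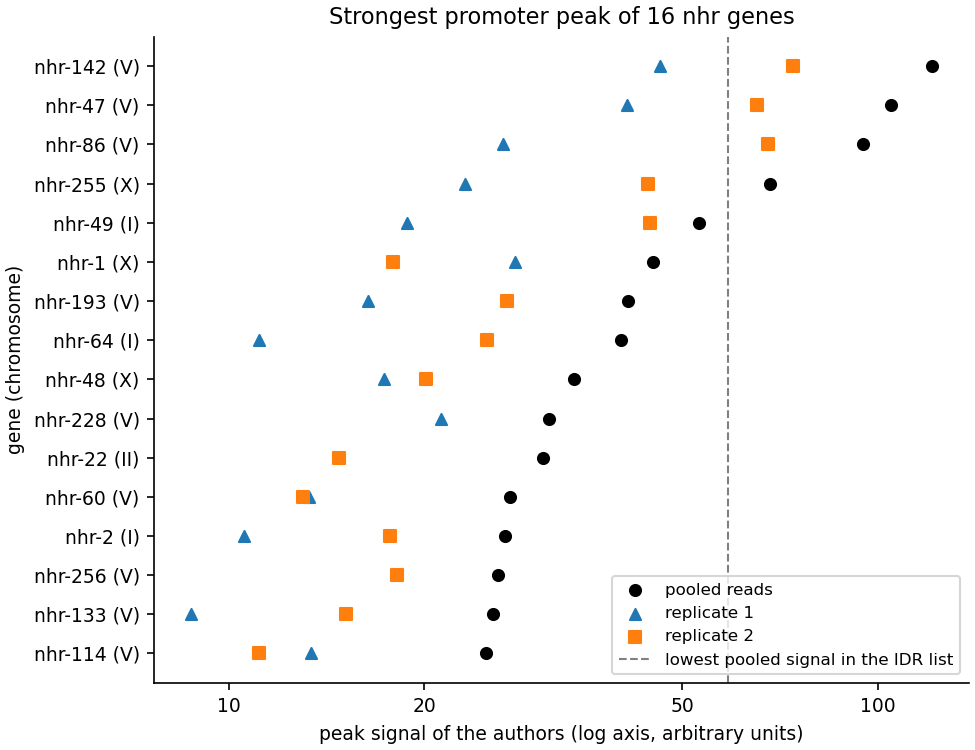
Signal of the highest peak in the promoter window (log axis, the authors' units) for the 16 nhr genes of highest pooled signal, in the pooled list (circles), replicate 1 (triangles) and replicate 2 (squares), with no mark where a list had no summit. The dashed line is the lowest pooled signal in the IDR list, 58.8, and applies to the circles alone, of which 4 lie to its right.

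Peaks just outside the scored window were also examined. The nearest was at nhr-8, a receptor of sterol homeostasis, with an IDR summit of signal 63.3 that lay 1088 bp upstream, 88 bp past the window's edge. That summit was 150 bp upstream of mrps-24, a mitochondrial ribosomal protein gene, and so far closer to it than to nhr-8. The next member was nhr-69, an HNF4-like receptor gene, with a summit of signal 90.0 inside a tRNA gene 2199 bp upstream. Then came nhr-150, where a summit of signal 63.9 lay 1444 bp into the gene, in an intron or other part of it and 35 bp from the 5' end of a tRNA gene.

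Inside the bodies of members, beyond the promoter window, IDR summits occurred at 3 genes, each in an intron or other noncoding part. The nhr-150 summit (V, 15479811 to 15480230) had signals of 26.1 in replicate 1 and 42.8 in replicate 2 within 200 bp. The nhr-17 summit (X, 12665069 to 12665488) lay 2575 bp into the gene with an IDR signal of 92.7, and with 48.0 in replicate 1 and 41.8 in replicate 2. It was 44 bp from the 5' end of the noncoding RNA gene C02B4.8. The nhr-64 summit (I, 3105580 to 3105999) lay 3939 bp into that gene with an IDR signal of 66.95, and with 20.8 and 47.6 in replicates 1 and 2. No tRNA or other noncoding 5' end lay within 500 bp of it, the nearest being 759 bp away. These members were picked out by their position after the values were seen.

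Weaker pooled peaks were more widespread in the family. The pooled relaxed list had a summit in the window of 37 members (13.8%, Wilson interval 10.1 to 18.4), against 30.4% of all coding genes. In the relaxed list of replicate 1 the members numbered 50 (18.6%), beside 31% of coding genes, and in that of replicate 2 they numbered 38 (14.1%), beside 31.7%. Over both replicates the share was 16.4% ± 3.15 (SD, n = 2) for the members and 31.4% ± 0.496 (SD, n = 2) for all coding genes. The members therefore lay below the coding genes in each list, by more than the spread between replicates. Of the 269 members, 196 had no summit in any list, a count with no counterpart here for all coding genes.

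The peaks that members did have mostly ranked low. Of the 37, 4 ranked within the first 1667 pooled peaks, 7 from there to rank 5000, 10 from there to rank 10000 and 16 below that. The last class held 43.2% of the members with a pooled summit and 23.3% of such coding genes. The median pooled signal was 23.6 for the 37 members and 31.7 for the 6074 coding genes with a summit. The lowest signal in that list was 16.3.

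Not all of these peaks recurred in the replicates. Of the 37 members with a pooled summit, 15 had a summit within 200 bp of it in both replicates (5.58% of all members). Of the 6074 coding genes with a pooled summit, 3804 had such a matched summit (19% of all coding genes). Counted by gene, 17 members had a summit in both relaxed replicate lists, 33 in replicate 1 alone and 21 in replicate 2 alone. These 17 were 34% of the members of replicate 1 and 44.7% of those of replicate 2. For all coding genes, the shares were 69.6% and 68.1%. Of the 37 pooled members, nhr-159 and nhr-55 had no summit in either replicate list, with pooled signals of 17.5 and 16.6.

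Among the pooled members without an IDR summit, nhr-1 had the next highest signal after nhr-49, 45.0. In replicate 1 it was 27.6, the highest there after nhr-142 and nhr-47, but in replicate 2 only 17.9, and its ranks were 1398 and 5596. Its summit lay 341 bp upstream on X. The nhr-193 value was 41.2, with 16.4 in replicate 1 and 26.9 in replicate 2. In replicate 2 its highest summit was a different one, 668 bp upstream, where that of the pooled list was 429 bp upstream. The noncoding RNA gene F57G8.13 had its 5' end 20 bp from the pooled summit of nhr-193.

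The next members were nhr-64, an HNF4-like receptor gene, and nhr-48, a relative of the insect receptor DHR96. The nhr-64 signal was 40.3 in the pooled list, 11.1 in replicate 1 and 25.02 in replicate 2, with the summit 72 bp upstream. The nhr-48 signal was 34.1, with 17.4 and 20.1 in replicates 1 and 2, and its summit lay 626 bp upstream on X. Both were matched in the replicates.

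Below these, the pooled peaks of nhr-228 (31.1), nhr-22 (30.5) and nhr-256 (26.0) were each present in 1 replicate list alone. The nhr-228 peak was in replicate 1 (21.2), and those of nhr-22 (14.8) and nhr-256 (18.2) were in replicate 2. The nhr-22 summit lay in the gene's own coding exon, 194 bp past the 5' end. In contrast, nhr-60, nhr-2, nhr-133 and nhr-114 had pooled signals from 24.9 to 27.1 and a matched summit in both replicates. The 21 members below these had pooled signals from 16.4 to 24.2.

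**Figure D2:**
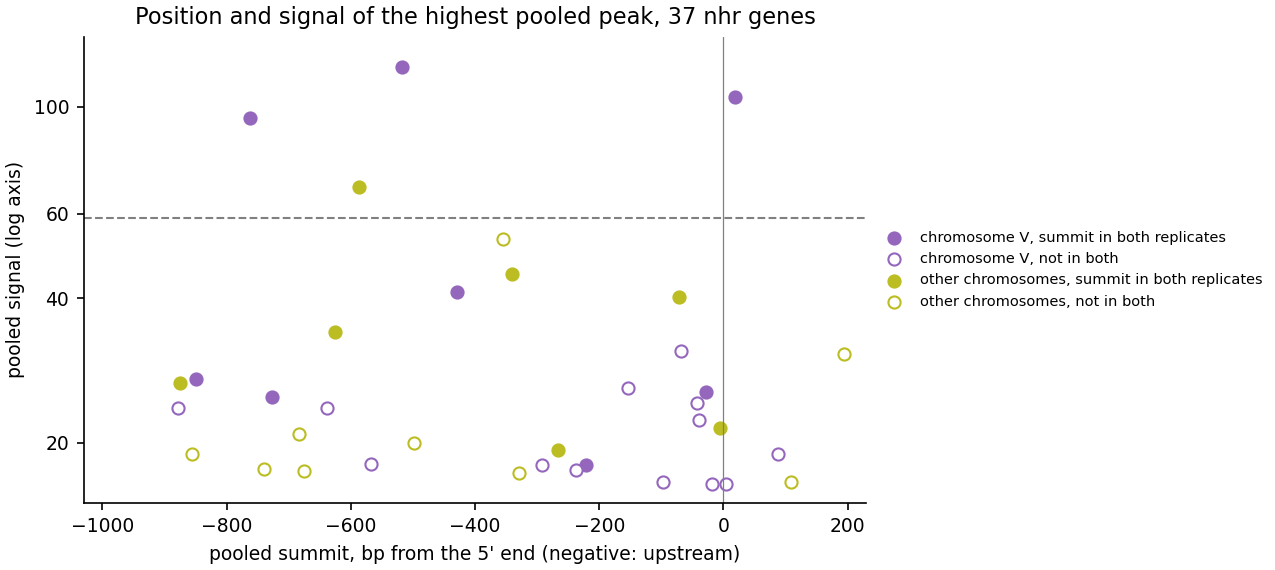
Pooled signal (log axis, the authors' units) against the distance in bp of the highest pooled summit from the 5' end of 37 nhr genes, negative values being upstream. Filled points had a summit within 200 bp in both replicates, colours separate chromosome V from the others, and the dashed line is the lowest pooled signal in the IDR list, 58.8. Most points lie upstream, as does most of the scored window, and below the line.

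The scored window holds 1000 bp upstream and 200 bp downstream, so a majority of upstream summits follows largely from the rule. The summit was upstream of the 5' end in 32 of 37 members (86.5%), beside 87.3% of coding genes with a pooled summit. It was within 500 bp upstream in 18 and farther in 14, and the median position was 329 bp upstream for members and 240.5 bp upstream for coding genes. By annotation, and counted by member, 30 summits were intergenic, 3 in 5' UTRs, 2 in coding exons and 2 in introns or other parts of a gene. The member's own 5' end was the nearest coding 5' end in 34 of 37 (91.9%, against 78.7% of coding genes). For only 7 members (18.9%) the summit also lay in another coding window, against 36.4% for coding genes. The 37 members had 35 distinct peaks, because the divergent neighbours nhr-212 and nhr-130 shared one (signal 23.6) and nhr-152 and nhr-94 another (16.4).

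By role, the 27 members of the groups below, chosen by function or by counterparts outside nematodes, had an IDR summit in 1 case. The share was 3.70% (Wilson interval 0.657 to 18.3), and this interval contains the 7.85% of all coding genes. Of 14 members with counterparts outside nematodes, none had an IDR summit (Wilson upper bound 21.5%) and 4 had a pooled one, namely nhr-49, nhr-64, nhr-48 and nhr-85 (28.6%, near the 30.4% of coding genes). The last, a relative of Rev-erb that acts in developmental timing, had a pooled signal of 19.96 and one of 9.03 in replicate 1, with none in replicate 2. No summit of any list lay at nhr-23 or nhr-25, the moulting receptors related to ROR and Ftz-F1, or at nhr-67, related to tailless. The same held for nhr-41, so that 1 of 5 members of the moulting and development group had a pooled summit. This share of 20% has a Wilson interval of 3.62 to 62.4, which contains the 30.4% of coding genes.

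Of 14 members with a role in metabolism and stress, nhr-86 had an IDR summit, and nhr-49, nhr-114 and nhr-10 had weaker pooled ones. The shares, 7.14% and 28.6%, were near the 7.85% and 30.4% of all coding genes. The nhr-114 gene has a role in protecting the germline from effects of the diet. Its signal was 24.9 in the pooled list, 13.4 in replicate 1 and 11.1 in replicate 2. The nhr-10 gene acts in the propionate shunt, and it had 20.8 in the pooled list, 11.4 in replicate 2 and no summit in replicate 1. Its partner nhr-68 had a summit in replicate 1 alone (8.35), and nhr-80, a regulator of fatty acid desaturation, had none.

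Of 6 members that act in the gonad, germline or embryo, none had an IDR summit (Wilson upper bound 39.0%) and 3 had a pooled one. The pooled share of 50% has a Wilson interval of 18.8 to 81.2, which contains the 30.4% of all coding genes. The nhr-2 gene, active in the early embryo, had 26.7 in the pooled list, 10.6 in replicate 1 and 17.7 in replicate 2. The nhr-60 gene, also of the embryo, had 27.1, 13.3 and 13.0 in the same order, and nhr-114 also belongs here. The nhr-6 gene, a relative of NR4A that shapes the spermatheca, and nhr-91 had none. In all, 9 of the 27 members in these role groups had a pooled summit (33.3%, Wilson interval 18.6 to 52.2), near the 30.4% of coding genes, while 28 of the other 242 did (11.6%, 8.13 to 16.2). The role groups held 8 genes on V. The remaining members held 159 there.

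Nuclear receptors named otherwise and genes that work with receptors were counted beside the members. None of daf-12, odr-7, sex-1, unc-55 and fax-1 had a summit in any list. With 5 genes the Wilson upper bound is 43.4% in each list, above the 7.85% (IDR) and 30.4% (pooled) of all coding genes. All 3 coregulator genes had a pooled summit (Wilson interval 43.9 to 100%), beside 30.4% of all coding genes, and 3 chosen genes are few. The acetyltransferase gene cbp-1 had an IDR summit of signal 59.3, with 27.0 in replicate 1 and 28.6 in replicate 2. The corepressor gene din-1, a partner of DAF-12, had 55.2, 20.8 and 31.4 in the pooled list and replicates 1 and 2. The Mediator subunit gene mdt-15, a partner of NHR-49, had 18.3, 12.1 and 11.6. Of 6 genes of dafachronic acid and sterol metabolism, strm-1 (28.4) and emb-8 (17.2) had a pooled summit and daf-9 did not. Of 6 target genes of these receptors, acs-2 had one (28.6). These 2 pooled shares were 33.3% (Wilson interval 9.68 to 70.0) and 16.7% (3.01 to 56.4), and both intervals contain the 30.4%. Other families gave IDR and pooled counts of 3 and 14 of 63 for ceh homeobox genes, 5 and 32 of 240 for C-type lectins, and 0 and 12 of 193 for str chemoreceptors. In this order the IDR shares were 4.76%, 2.08% and 0%, beside 7.85% of all coding genes. The pooled shares were 22.2%, 13.3% and 6.22%, beside 30.4%. The pooled share of C-type lectins, 13.3%, was near the 13.8% of the nhr genes.

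Chromosome V holds most of the family. It carried 167 of 269 members (62.1%), but 25.004% of all coding genes. On V, 3 members had an IDR summit (1.80%, Wilson interval 0.613 to 5.15), against 4.95% of coding genes there. On the other chromosomes together, 1 of 102 had one (0.980%, 0.173 to 5.35), against 8.82%. In the pooled list, 21 members on V had a summit (12.6%, 8.37 to 18.5), beside 21.2% of coding genes on V. Elsewhere 16 members did (15.7%, 9.89 to 24.0), beside 33.5%.

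For all coding genes V lay below the other chromosomes by 12.3 percentage points in the pooled list. For the members the difference was 3.11 points. It was 0.0646 points in replicate 1 and 7.25 points in replicate 2, V being lower in each, so that its mean of -3.66 ± 5.08 (SD, n = 2) did not exceed the spread between replicates. Its sign turned with 500 bp upstream in place of 1000 (0.159 points, V higher) and in the upper 50 percent of the list by signal (0.323 points). It was -9.70 points with 2000 bp upstream and -8.78 with any overlap of the peak interval. With the 5' end of every coding transcript it was -7.80 points. The spread between replicates was computed for the main setting alone. The difference for all coding genes is given for the main window and the full list alone. In replicate 1, 31 members on V had a summit (18.6%), and in replicate 2, 19 did (11.4%). Off V the number was 19 (18.6%) in both. The size of the difference thus depended on how summits were assigned to genes and on the part of the list used. Off V, the member shares of single chromosomes rest on few genes and overlap in their intervals. On X, 4 of 23 members had a pooled summit (17.4%, Wilson interval 6.98 to 37.1), near the 16.8% of coding genes there. All 4 were matched in both replicates, beside 7.87% of coding genes on X, a share that the same interval contains. At nhr-32 the replicate summits lay 159 and 173 bp from the pooled one, on opposite sides of it. On IV, 2 of 33 members had a pooled summit (6.06%, 1.68 to 19.6), beside 30.1% of coding genes. On I, II and III, 4 of 23, 3 of 15 and 3 of 8 did, beside 43.9%, 31.1% and 46.8%.

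**Figure D3:**
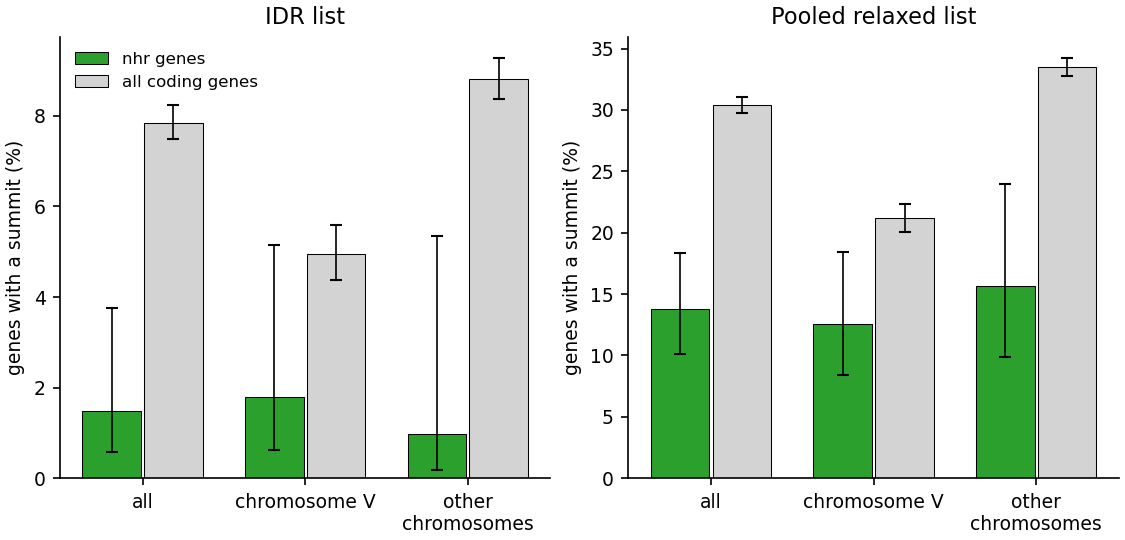
Percent of nhr genes (green) and of all coding genes (grey) with a summit in the promoter window, in the IDR list (left) and the pooled relaxed list (right), with 95% Wilson intervals. In the pooled list the nhr shares are 12.6% on V and 15.7% elsewhere, and those of coding genes are 21.2% and 33.5%.

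Within V the 3 members with an IDR summit lay in the left part. Of 78 members whose 5' end was in the left part of V, when its length was divided into 3 equal parts, 12 had a pooled summit (15.4%, Wilson interval 9.03 to 24.99) and 3 an IDR summit, namely nhr-142, nhr-47 and nhr-86. The coding genes of the left part had 17.5% and 4.12%. The IDR share of members there, 3.85% (1.32 to 10.7), was near that of coding genes. No member of the middle part had an IDR summit (Wilson upper bound 8.57%), beside 6.67% of coding genes. None of the right part had one either (upper bound 7.41%), beside 3.84%. In the middle part, 4 of 41 members had a pooled summit (9.76%, 3.86 to 22.5), beside 26.6% of coding genes. In the right part, 5 of 48 did (10.4%, 4.53 to 22.2), beside 18.6%. The member shares overlap in their intervals. Off V, 12 of 71 members in the outer parts of chromosomes (16.9%) and 4 of 31 in the middle part (12.9%) had a pooled summit, beside 31.3% and 37.1% of coding genes.

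**Figure D4:**
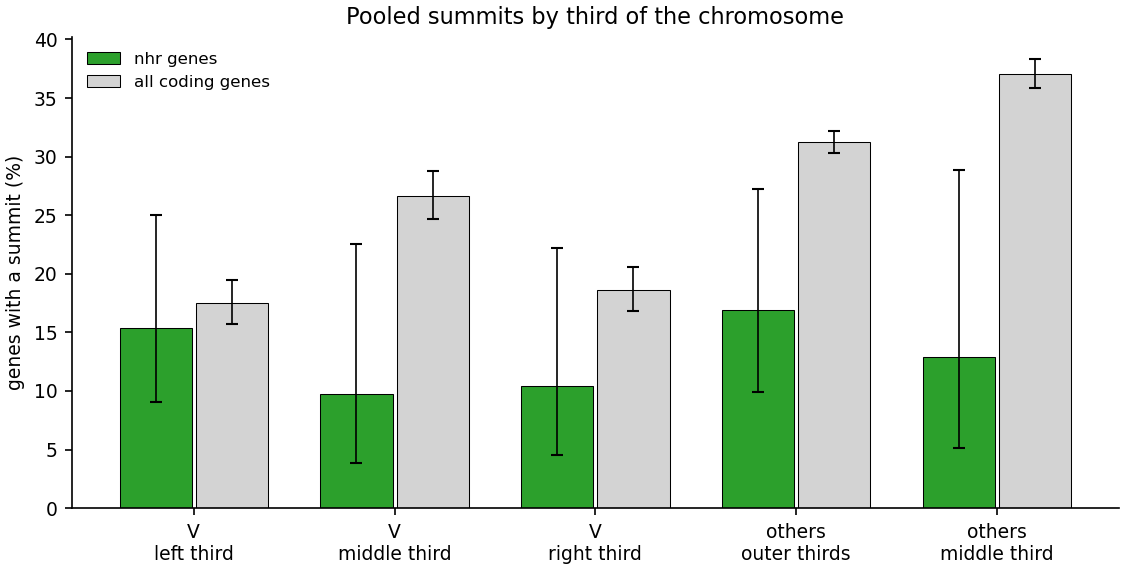
Percent of nhr genes (green) and of all coding genes (grey) with a pooled summit in 3 equal parts of the chromosome's length, on V and on the other chromosomes, with 95% Wilson intervals. The 2 shares are closest in the left part of V, 15.4% and 17.5%.

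Many members lie side by side. On V, 107 of the 167 members had another member as the neighbouring coding gene, against 29 of 102 elsewhere. All 4 members with an IDR summit were among the 133 without a member next to them. None of the 136 with such a neighbour had an IDR summit (Wilson upper bound 2.75%). The 133 had one in 3.01% (1.18 to 7.48), and the intervals of the 136 and the 133 overlap. Other coding genes next to a member had an IDR summit in 13 of 338 cases (3.85%, 2.26 to 6.47), beside 7.85% of all coding genes. In the pooled list, the 136 had a summit in 14 cases (10.3%, 6.23 to 16.5), all on V, and the 133 in 23 (17.3%, 11.8 to 24.6). On V alone the shares were 13.1% and 11.7%, and elsewhere 0 of 29 and 16 of 73 (21.9%). The other coding genes next to a member had a pooled summit in 17.5% of 338 cases.

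Forkhead words were no more than occasional at the members' summits. The word TGTTTAC and its variants, which were TATTTAC and also TGTTTGT, were searched on both strands within 150 bp of each pooled summit, a window of 301 bases. At least one was present at 6 of the 35 distinct nhr summits (17.1%, Wilson interval 8.10 to 32.7), against 14.9% of the 16940 nuclear pooled summits and 17.4% of the 1648 nuclear IDR summits. None was found at nhr-142, nhr-47, nhr-86 or nhr-255. The words were TGTTTAC at nhr-10, nhr-32 and nhr-277, TATTTAC at nhr-22, and TGTTTGT at nhr-228 and nhr-2. In nhr-228 the word began 10 bp from the summit. A match is a description and no match says only that these letters were not in the window.

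A different word, CACGTG, which is an E-box bound by basic helix-loop-helix factors, was noticed on reading the sequences at the summits. It was then counted in the same 301-base windows on both strands, which it reads alike. It was present at 9 of the 35 distinct nhr summits (25.7%, Wilson interval 14.2 to 42.1). It was present at 6.55% of nuclear pooled summits, 5.40% of nuclear IDR summits and 5.91% of the 4961 distinct pooled summits that score a coding gene. At points 500 bp to each side of the nhr summits it was present in 2 of 70 windows (2.86%, 0.787 to 9.83), against 6.10% of such points around all pooled summits. A second word noticed in the same way, GAGAGA, was present at 12 of the 35 nhr summits (34.3%, 20.8 to 50.8), 22.9% of nuclear pooled summits and 26.5% of nuclear IDR summits. At the points 500 bp to each side it was present in 21.4% of windows for the nhr summits and 16.5% for all pooled summits. Since both words were chosen after the sequences had been seen, no test was made. The 9 members with CACGTG were nhr-86, nhr-49, nhr-22, nhr-60, nhr-133, nhr-114, nhr-50, nhr-32 and nhr-135. Of these, nhr-86, nhr-49 and nhr-114 are in the metabolism and stress group, too few to tie the word to a role. At nhr-49 the word began 137 bp to the left of a summit not matched in both replicates. The word lay within 50 bp of the summit at 3 of the 9 members.

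In the promoters of the family as such, CACGTG had a share near that of all genes. It occurred in the scored window, 1000 bp upstream to 200 bp downstream, of 52 of 269 members (19.3%) and of 18.4% of all coding genes. Among the 52 members with the word, 14 had a pooled summit (26.9%, Wilson interval 16.8 to 40.3), and among the 217 without it, 23 did (10.6%, 7.17 to 15.4). For all coding genes the shares with and without the word were 33.3% and 29.8%. Members at whose summits the word was noticed are among the 14, so the difference between members is partly built in. The splits of member summits that follow count the same summits and are descriptions alone. The word lay near 6 of the 15 member summits matched in both replicates and 3 of the other 20. On V it was at 6 of 19 distinct member summits and elsewhere at 3 of 16, against 7.67% and 5.54% of coding summits. In other families it was at 4 of 32 C-type lectin, 0 of 14 ceh and 0 of 12 str summits.

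The CACGTG sites are shown for 7 of the 9 members as 30 bases of the plus strand of ce11 from RefSeq, 5′ to 3′, with CACGTG in capitals. The word began 24 bp to the right of the summit at nhr-60 and 25 bp at nhr-135, and 54, 73 and 78 bp to the left at nhr-133, nhr-114 and nhr-32. At nhr-22 it was 62 bp to the left and at nhr-50 148 bp to the left, near the edge of the window.
nhr-60, chrV:15774103-15774132: accctccgattcCACGTGggtgtctgcagc
nhr-135, chrV:7094005-7094034: ggagagaaagaaCACGTGagaagaagacac
nhr-133, chrV:2212080-2212109: ttatacataaaaCACGTGaaagaacgatga
nhr-114, chrV:4186390-4186419: acactctgccacCACGTGtagcttcttctt
nhr-32, chrX:13251607-13251636: tcctgtcaatagCACGTGcagtctattttc
nhr-22, chrII:6449524-6449553: gagatggcattcCACGTGgagatgttgaag
nhr-50, chrV:16000510-16000539: aagtcggaaaatCACGTGgaaacggggaag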

How the data were processed

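ChIP-seq peak lists of 2 replicates and of their pooled reads were used as the authors deposited them, in narrowPeak form on ce11. Per the deposited text listings, there is a relaxed list for each replicate and one for the pooled reads, and the IDR list was derived from these. Both labels name the same control experiment. Aligner, peak caller and IDR threshold: not given in the sources used here. Signal is the deposited column 7, and its summit is column 2 plus column 10, another value the authors deposited. A fault of that control would enter both replicates alike, control reads were not used, and the lists hold no read counts. The ce10 lists were not used here. Unmapped per-sample columns numbered 0.

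Genes and tRNA genes came from Ensembl release 115 of WBcel235, the assembly ce11 names. Sequence and tRNA products came from RefSeq. Mitochondrial genes and peaks were left out of gene and word counts. Work was done in Python 3.11.15 with numpy 2.4.6, pandas 2.3.3, scipy 1.17.1 and matplotlib 3.10.9. The scoring was tested on simulated data for 200 genes, where it returned every summit placed inside the window. Shares have 95% Wilson intervals, and with 2 replicates of 1 group no test between samples was possible. The SD over replicates comes from the relaxed lists taken alone. The named genes were all members with an IDR summit, the 12 of highest pooled signal without one, role group members with a pooled summit, and the 3 nearest outside the window, and others were chosen after their values were seen. The members and lists were chosen with earlier results of these data known. The sequence at nhr-86 is not reported here.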

Additional observations from a re-analysis of the deposited data

How the results depend on the processing

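With 500 bp upstream, 1 member (nhr-47) had an IDR summit, 24 a pooled summit, 9 of them off V, and 8 a pooled summit matched in both replicates. With 2000 bp upstream, the pooled members off V were 27, the matched ones 24, and V lay below the other chromosomes with a difference of -9.70 points. With any overlap of the peak interval this difference was -8.78 points. In the upper 50 percent of the pooled list by signal, 19 members had a summit, 12 on V and 7 off it. The difference turned positive, 0.159 and 0.323 points, with 500 bp upstream and in that upper part of the list. With each replicate left out in turn, IDR members, taken as those among the 1667 highest peaks of the other, ranged from 4 to 5, pooled members from 38 to 50, those on V from 19 to 31, and the difference from -7.25 to -0.0646 points, while those off V were 19 both times. Of the 37 pooled members, 26 were among the 38 of replicate 2 and 25 among the 50 of replicate 1. With summits matched within 50 bp, 10 members were matched in both replicates. The cause of these shifts was not tested, beyond the window's own width. Except for the relaxed list of each replicate, shares of all coding genes are not given for these settings. Whether the members moved relative to all coding genes is therefore not shown. Transcript 5' ends, the removal of summits in noncoding genes and the window with nothing downstream kept each count within 1.5 times its value, but with transcript 5' ends the difference was -7.80 points. No paired analysis was possible because the replicates form 1 group. Unknown read depth limits what the absence of a summit says.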
